A study of Mus musculus with 8 samples.

Results

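The genes described here encode ion channels, channel subunits and regulators, and aquaporins, chosen by a pattern on the gene symbol alone. The pattern takes the Kcn, Scn, Scnn1, Cacn, Clcn, Clca, Clic, Cftr, Trpc, Trpv, Trpm, Piezo, Ano, Aqp and P2rx families and matched 209 of the 56691 rows of the count table. They were measured by bulk RNA sequencing in organoids, cultures grown from single cells of the glandular stomach (hindstomach) of mouse embryos at day 18.5, kept for 5 days in growth medium and then for 7 days in differentiation medium. Both groups carry Shh-Cre, a Cre recombinase driven by the Shh gene, which is active in the embryonic foregut epithelium. The 4 Ctrl cultures have the genotype Shh-Cre and the 4 YAP5SA cultures have the genotype Shh-Cre;YAP5SA, in which YAP, the coactivator held back by the Hippo pathway, is made in a form that lacks its inhibitory phosphorylation sites. The labels do not name embryos, litters or culture days, and the p-values here measure no more than the spread among the cultures, part of which may be technical.

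Ion channels let potassium, sodium, calcium or chloride run down their electrochemical gradients, and aquaporins pass water or, in some members, glycerol. In a gastric epithelium, luminal potassium channels recycle the potassium that the acid pump takes up, chloride channels feed acid and fluid secretion, and basolateral channels set the driving force. Mucous cells of the stomach surface use chloride and water channels while they release and hydrate mucus.

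Library totals ran from 17387372 to 25841256 counts. All 6 epithelial markers examined were detected, at a summed 15600 to 17100 CPM (counts scaled to library size) in Ctrl and 9260 to 11000 CPM in YAP5SA. Krt8, Krt19 and Cdh1 were lower in YAP5SA (-1.17, -1.03 and -0.78), Epcam and Cldn7 were higher (0.998 and 0.36), and Krt18 was not called (0.11). Fibroblast markers summed to at most 0.415 CPM in Ctrl and 0.639 CPM in YAP5SA, smooth muscle markers to at most 1.42 and 1.65 CPM, and glial markers to at most 1.30 CPM in either group, with Sox10, Fabp7 and Col1a2 at 0 in all libraries. Enteroendocrine markers summed to at most 0.790 CPM in Ctrl and 0.502 CPM in YAP5SA, with Gast, Sst and Neurod1 at 0. The YAP/TEAD target Ccn1 had 32.0 ± 3.29 CPM in Ctrl against 433 ± 33.2 CPM in YAP5SA, and the Yap1 row, which may hold transgene reads, was at 118 ± 11.0 and 140 ± 2.22 CPM (SD, n = 4 each). Xist, the RNA of the inactive X chromosome, had 8436 to 12237 counts per Ctrl library and 0 to 8 per YAP5SA library, while 4 Y-linked genes had 0 counts in every Ctrl library and at least 880 in every YAP5SA library. Genotype and this difference in sex-linked transcripts cannot be told apart in any comparison below. In bulk RNA, fewer cells of a type and less RNA per cell cannot be told apart either.

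Of the 209 genes, 70 passed the filter on low counts and were tested, 50 had 0 counts in all libraries and 89 had too few counts. A count of 0 in a library allows up to 3 counts, or 0.125 to 0.178 CPM. By edgeR's quasi-likelihood test on the 13812 genes of the table that passed the filter, 49 of the 70 differed at an adjusted p under 0.05, which is 70.0% of them against 64.5% of all genes tested. Higher in YAP5SA were 18 (25.7%, against 33.1% of all genes), and lower were 31 (44.3%, against 31.3%). Changes of more than 2-fold were called upward in 12 (17.1%, against 14.0%) and downward in 21 of 70 (against 11.5%). The median log2 fold change was -0.26 over the 70 genes and 0.02 over all genes. Scaling on library size alone shifts the median of all genes to 0.19, and the calls were then 23 higher and 26 lower. Over all genes, 8943 of 13812 were then called, 64.2% of them higher, against 51.4% of calls with TMM scaling. The 4 libraries of one group lay wholly above or below those of the other for 45 of the 70 (64.3%, against 58.7% of all genes). Each family count below is to be read against the same shares of all genes, 33.1% higher and 31.3% lower. The plot of fold changes by channel family shows 67 of the 70.

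**Figure D1:**
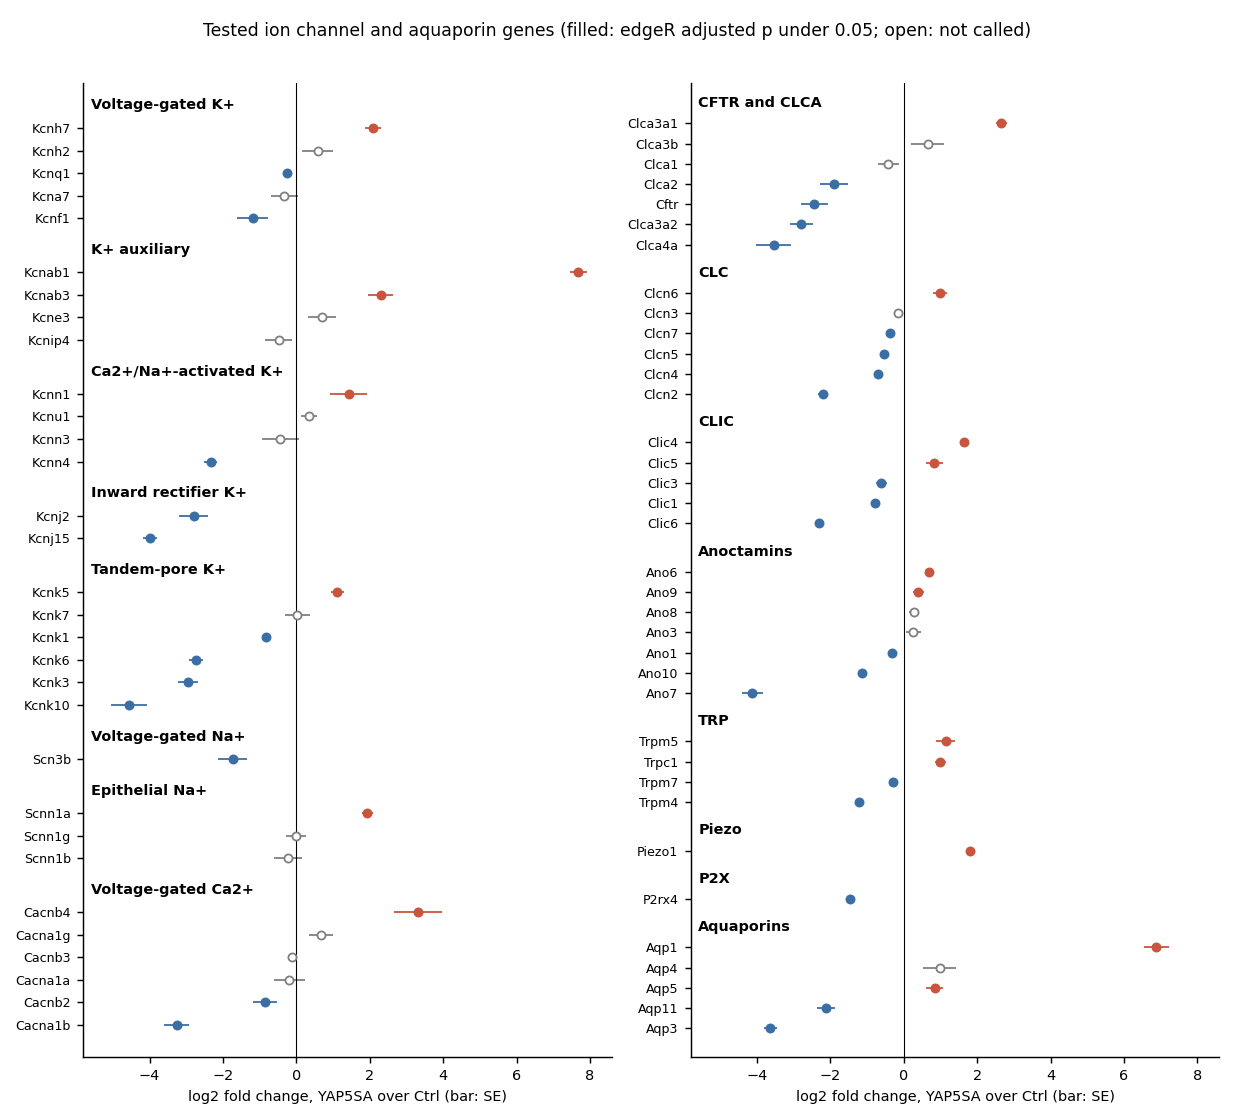
Log2 fold change of YAP5SA over Ctrl (horizontal axis) with its standard error (bar) for 67 of the 70 tested genes, by family; filled points passed an edgeR adjusted p of 0.05 and open points did not. Kcnab1 (7.68) and Aqp1 (6.88) lie far to the right, and Kcnk10 (-4.55), Ano7 (-4.13) and Kcnj15 (-3.99) lie farthest to the left.

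The aquaporin transcripts changed in makeup. In Ctrl libraries Aqp3, which passes water and glycerol, was the main one, whereas in YAP5SA libraries the water channels Aqp5 and Aqp1 were. Of 11 aquaporin genes 5 were tested, with 2 called higher, 2 lower and 1 not called, and a median log2 fold change of 0.85. Sequences upstream of the start of Aqp1 and Aqp3, the aquaporins with the steepest rise and the steepest fall, are shown from RefSeq (GRCm38.p6), each as the 250 bases before the start and 5′ to 3′ on the gene's strand. Aqp1 is on the plus strand at chr6:55336049-55336298 and Aqp3 on the minus strand at chr4:41098184-41098433, and capitals mark the TATA box, searched as TATAAA.
Aqp1: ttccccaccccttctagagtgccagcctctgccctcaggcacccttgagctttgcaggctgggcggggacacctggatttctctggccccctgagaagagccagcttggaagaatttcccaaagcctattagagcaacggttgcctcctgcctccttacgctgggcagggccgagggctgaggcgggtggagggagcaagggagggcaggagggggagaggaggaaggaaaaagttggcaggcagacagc
Aqp3: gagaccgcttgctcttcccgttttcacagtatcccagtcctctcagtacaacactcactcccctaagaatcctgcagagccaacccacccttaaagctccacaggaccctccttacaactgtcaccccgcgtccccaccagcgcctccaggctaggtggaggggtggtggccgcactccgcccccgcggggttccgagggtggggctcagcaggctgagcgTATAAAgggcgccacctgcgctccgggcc
The Aqp3 stretch holds these letters from 29 to 24 bases before the start, and the Aqp1 stretch does not hold them on either strand. Bases just after the start were found in a GENCODE M21 transcript of Aqp3 but in none of Aqp1. The start used for Aqp1 was thus not borne out by that check. The core bound by TEAD factors, the partners of YAP on DNA, was searched as GGAATG and found on neither strand of either stretch. Among all 32851 such windows of 250 bases, 12.4% hold the TATA box and 12.6% the TEAD core, with both strands read. Windows were found for 51 of the 70 tested genes, 66 in all because some genes have several starts, and 6 of them (9.09%) hold the TEAD core: 0 of 20 for genes called higher, 4 of 29 for genes called lower and 2 of 17 for genes not called.

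Aqp1, a water channel of many secretory and absorptive epithelia and of vessels, was at 1.18, 0.355, 0.417 and 0.782 CPM in Ctrl replicates 1 to 4 and at 96.4, 71.4, 45.1 and 105 CPM in YAP5SA replicates 1 to 4. Every YAP5SA library thus lay far above every Ctrl library, and the log2 fold change was 6.88 (SE 0.34, edgeR adjusted p = 5.93e-10), a 118-fold rise. The endothelial markers Pecam1, Cdh5, Kdr and Emcn, looked at because vessels make Aqp1, were all under the filter and summed to 0.335 to 0.889 CPM in Ctrl and 0 to 0.456 CPM in YAP5SA. Aqp3 was at 167, 319, 302 and 267 CPM in Ctrl and at 17.7, 22.2, 21.1 and 23.8 CPM in YAP5SA. The groups did not overlap, Ctrl replicate 1 was the lowest of its group, and Aqp3 fell by 3.64 on the log2 scale (SE 0.18, adjusted p = 6.28e-10).

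Aqp5, a water channel of gland cells, was at 103, 42.3, 49.96 and 83.8 CPM in Ctrl and at 124, 105, 106 and 165 CPM in YAP5SA, a rise of 0.85 (SE 0.23, adjusted p = 0.0056). Its highest Ctrl library nearly reached the lowest YAP5SA library. Aqp11, an aquaporin of intracellular membranes, fell by 2.11 on the log2 scale (SE 0.24). Aqp4, a water channel known from parietal cells, was at 0.97 (SE 0.44, adjusted p = 0.0683). That value was 1.23 without Ctrl replicate 2 (adjusted p = 0.0373) and 1.29 without YAP5SA replicate 4 (adjusted p = 0.0034), the lowest of its group at 0.730 CPM. It was also called with library size scaling (1.16, adjusted p = 0.0340). With no filter on low counts it was called at the same 0.97 (adjusted p = 0.00413), in a fit whose adjusted p moved widely at unchanged fold changes. Of the 6 aquaporin genes below the filter, Aqp6 had no counts and Aqp12 had 1 in each group. Aqp2 had 0 counts in Ctrl and 12 in YAP5SA and Aqp9 had 0 and 14, at least 4.22-fold and 4.92-fold higher if the Ctrl sum is set to 3 counts. Aqp8 had 10 in Ctrl and 1 in YAP5SA (9.48-fold lower per total count, 95% counting interval 1.35 to 411), and Aqp7 had 5 and 0.

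Per kilobase of exon, a scale that allows for the exon length of each gene, Aqp3 stood at 144 ± 37.4 CPM per kb in Ctrl and Aqp5 at 26.8 ± 10.9, with Aqp1 at 0.261 ± 0.146 (SD, n = 4). In YAP5SA the order was Aqp5 at 48.2 ± 10.9, Aqp1 at 30.3 ± 10.3 and Aqp3 at 11.6 ± 1.4 CPM per kb. Aqp3 made up 69.2% to 91.0% of the summed aquaporin level in Ctrl and 10.2% to 16.4% of it in YAP5SA. The share of Aqp5 was 8.49% to 30.01% in Ctrl and 50.3% to 57.9% in YAP5SA, and that of Aqp1 was at most 0.343% in Ctrl and 24.4% to 38.6% in YAP5SA. The sum itself was 132 to 192 CPM per kb in Ctrl and 70.4 to 117 in YAP5SA, so that no YAP5SA library reached the lowest Ctrl library.

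**Figure D2:**
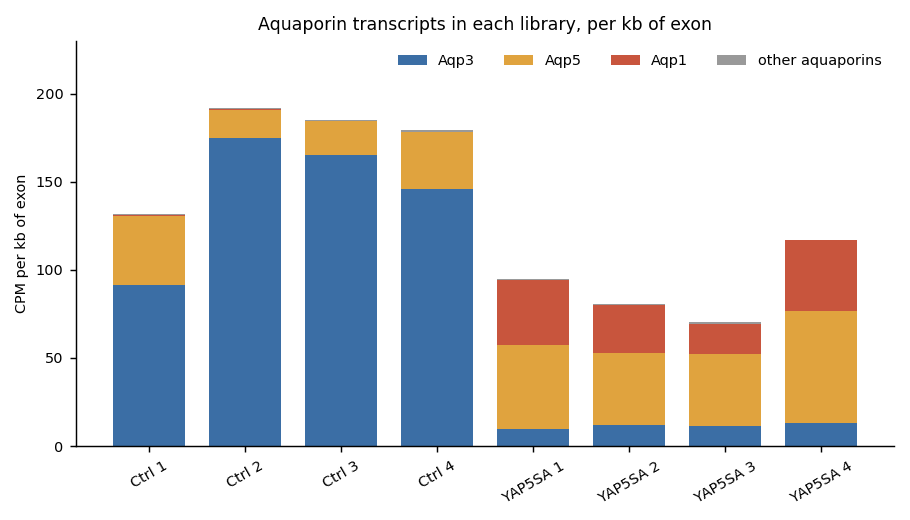
Summed aquaporin level in CPM per kb of exon (vertical axis) in each of the 8 libraries, stacked by gene. Aqp3 fills 69.2% to 91.0% of each Ctrl bar, and Aqp5 with Aqp1 fills most of each YAP5SA bar.

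Of 25 tested genes for chloride channels and their regulators, 14 fell, 6 rose and 5 did not pass the test, and their median log2 fold change was -0.42. Over all genes tested, 31.3% were lower and 33.1% higher. In the group of Cftr and the Clca genes, 4 of 7 tested were lower and 1 higher. Cftr, the cyclic-AMP-gated anion channel, was at 6.21, 2.61, 2.79 and 2.79 CPM in Ctrl and at 0.363, 0.676, 0.639 and 0.958 CPM in YAP5SA. Ctrl replicate 1 stood above the other 3 Ctrl libraries, the groups did not overlap, and Cftr fell by 2.43 on the log2 scale (SE 0.37, adjusted p = 5.83e-05).

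The Clca genes encode secreted regulators of calcium-activated chloride current. They are close copies of one another, so that the split of reads among them is uncertain. Clca1, a protein of mucus-secreting cells, was one of the most abundant transcripts of the set, at 495, 1785, 947 and 643 CPM in Ctrl and 634, 771, 784 and 697 CPM in YAP5SA. The Ctrl values spread over more than the whole YAP5SA range, and the log2 fold change of -0.42 was not called (SE 0.28, adjusted p = 0.207). With Ctrl replicate 1 left out it passed at -0.67 (adjusted p = 0.0238), and it was 0.03 without Ctrl replicate 2 (adjusted p = 0.882). With no filter on low counts it was called at the same -0.42 (adjusted p = 2.16e-06). The adjusted p of that fit is not read as a measure of the spread among these libraries. Clca4a was at 17.8, 128, 80.7 and 52.5 CPM in Ctrl and at 4.18, 10.1, 5.70 and 4.15 CPM in YAP5SA. Its lowest Ctrl library was again replicate 1 and still lay above all YAP5SA libraries, a fall of 3.54 on the log2 scale (SE 0.48).

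Clca3a1 went the other way, from 5.70, 4.21, 4.75 and 3.80 CPM in Ctrl to 32.6, 25.96, 25.4 and 32.7 CPM in YAP5SA (2.66, SE 0.15, adjusted p = 2.17e-09). Its close copy Clca3a2 fell from 1.97 ± 0.142 to 0.280 ± 0.0269 CPM (SD, n = 4). Clca2 was at -1.90 (SE 0.38). Clca3b, at 0.65, was not called with all libraries (adjusted p = 0.211) and was at 1.10 without Ctrl replicate 1 (adjusted p = 0.0434).

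Among the CLC proteins, which are plasma membrane channels or chloride-proton exchangers of endosomes and lysosomes, 4 of 6 tested were lower, 1 higher and 1 not called. Clcn2, the inwardly rectifying plasma membrane channel, had the largest change of the family. It was at 64.4, 98.3, 85.5 and 96.8 CPM in Ctrl and at 17.4, 17.7, 21.4 and 18.2 CPM in YAP5SA, with no overlap (-2.21, SE 0.13, adjusted p = 3.64e-09). The exchanger genes moved less. Clcn4 fell by 0.71 (SE 0.07), Clcn5 fell by 0.55 (SE 0.09) and Clcn7, the lysosomal exchanger, fell by 0.38 (SE 0.10) on the log2 scale, the last at -0.21 and no longer called when scaled on library size (adjusted p = 0.0844). Clcn5 is X-linked, and the groups differ in Xist as given above. Clcn6 rose by 0.98 (SE 0.19) from a low level of 2.78 ± 0.490 CPM (SD, n = 4). Clcn3 was at -0.16 (adjusted p = 0.0543). DESeq2 called it at -0.17 (adjusted p = 0.0381), as did RLE scaling at -0.17 (adjusted p = 0.0431) and leaving out Ctrl replicate 1 at -0.20 (adjusted p = 0.0195) or YAP5SA replicate 4 at -0.18 (adjusted p = 0.0377), while library size scaling put it at 0.02 (adjusted p = 0.819).

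All 5 CLIC genes were tested and called, 3 lower and 2 higher, where 64.5% of all genes tested were called. CLIC proteins are small glutathione transferase-like proteins found in cytosol and membranes. Clic1, at 423, 525, 522 and 514 CPM in Ctrl and 276, 276, 281 and 318 CPM in YAP5SA, fell by 0.79 on the log2 scale (SE 0.09, adjusted p = 2.16e-06). Clic6, known from acid-secreting cells, was at 168, 134, 161 and 142 CPM in Ctrl and at 29.7, 31.1, 29.7 and 31.1 CPM in YAP5SA. Its YAP5SA libraries lay close together and far below the Ctrl libraries (-2.31, SE 0.09, adjusted p = 4.11e-11). Clic4, a relative that moves between cytosol, membranes and nucleus, was at 47.8, 63.3, 57.9 and 58.3 CPM in Ctrl and 161, 176, 177 and 191 CPM in YAP5SA (1.63, SE 0.09, adjusted p = 2.35e-09). Clic5, which binds cortical actin, was at 0.83 (SE 0.22) and Clic3 at -0.62 (SE 0.15). Per kb of exon, Clic4 made up 2.31% to 2.52% of the summed CLIC level in Ctrl and 11.7% to 12.6% in YAP5SA, and Clic6 8.92% to 13.6% and 3.26% to 3.72%. Clic1 was the main CLIC transcript in both, at 74.6% to 79.2% and 71.9% to 73.4%.

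Anoctamins are calcium-activated chloride channels or lipid scramblases. Of 7 tested, 3 were lower, 2 higher and 2 not called. Ano7 was at 14.1, 24.2, 20.5 and 10.3 CPM in Ctrl and at 1.18, 0.936, 0.746 and 1.05 CPM in YAP5SA, a fall of 4.13 on the log2 scale (SE 0.28, adjusted p = 1.9e-08) and the steepest of the chloride-linked genes. Ano10 fell by 1.13 (SE 0.12), and the scramblase gene Ano6 rose by 0.69 (SE 0.07). Ano1, the calcium-activated chloride channel of secretory epithelia, was at 283, 227, 231 and 173 CPM in Ctrl and 177, 193, 204 and 162 CPM in YAP5SA. The groups overlapped, and its value of -0.32 passed the test only narrowly (SE 0.12, adjusted p = 0.0363). Ano1 was not called once any of these was left out: Ctrl replicate 1 (-0.23, adjusted p = 0.0825), Ctrl replicate 3 (-0.33, 0.0512), YAP5SA replicate 1 (-0.30, 0.0797), YAP5SA replicate 2 (-0.34, 0.0532) or YAP5SA replicate 4 (-0.27, 0.0878). Library size scaling ended the call too (-0.14, adjusted p = 0.350).

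Interstitial cells of Cajal also make Ano1. Their markers Kit and Etv1 summed to 1.08 to 2.25 CPM in Ctrl and 0.274 to 1.45 CPM in YAP5SA, and their part in the Ano1 value was not tested. Ano9 was at 0.40 (adjusted p = 0.0339), a call that leaving out 1 library ended for Ctrl replicate 1 (0.28, adjusted p = 0.123), Ctrl replicate 3 (0.40, 0.0654), Ctrl replicate 4 (0.34, 0.0929), YAP5SA replicate 1 (0.34, 0.0977), YAP5SA replicate 2 (0.33, 0.106) and YAP5SA replicate 3 (0.40, 0.0623). Ano3, at 0.26 (adjusted p = 0.294), passed at 0.50 with Ctrl replicate 1 left out (adjusted p = 0.0155). Ano8 was at 0.27 (adjusted p = 0.0995), and at 0.44 and called with library size scaling (adjusted p = 0.0141).

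Potassium channel genes were the largest family, with 93 members. Of these 28 had 0 counts and 23 were tested, 9 of them lower, 5 higher and 9 not called, with a median log2 fold change of -0.26. The shares over all genes tested were 31.3% lower and 33.1% higher. The inward rectifiers and tandem-pore channels, which carry background potassium current, held 6 of the 9 that were lower. Auxiliary subunits held the steepest rise.

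Of 15 inward rectifier genes, 2 were tested and both were lower. Kcnj15, which encodes Kir4.2 and is known from acid-secreting and kidney epithelium, was at 160, 252, 215 and 131 CPM in Ctrl and at 10.4, 11.6, 15.6 and 10.3 CPM in YAP5SA. The lowest Ctrl library was far above the highest YAP5SA library, and Kcnj15 fell by 3.99 on the log2 scale (SE 0.20, adjusted p = 7.98e-10), a 15.9-fold difference. Kcnj2, the strong inward rectifier Kir2.1, was at 1.86, 6.04, 4.96 and 3.24 CPM in Ctrl and 0.318, 0.728, 0.586 and 0.684 CPM in YAP5SA (-2.79, SE 0.39).

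Of the 13 inward rectifier genes below the filter, 6 had no counts. Kcnj11, the pore of ATP-sensitive channels, had 52 counts in Ctrl and 5 in YAP5SA (9.86-fold lower per total count, 95% counting interval 3.97 to 31.6). Kcnj16, a partner of other inward rectifiers, had 25 and 0 (at least 7.90-fold lower if the YAP5SA sum is set to 3 counts), and Kcnj13 had 21 and 1 (19.9-fold lower, interval 3.20 to 823), though 49.1% of the exon bases of Kcnj13 overlap Gigyf2 on the other strand in GENCODE M21. Kcnj10 had 9 counts in Ctrl and 2 in YAP5SA, Kcnj14 had 5 and 0, Kcnj4 had 10 and 16, and Kcnj5 had 1 and 4. These intervals cover counting error only.

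Of 6 tested tandem-pore channel genes, 4 fell, 1 rose and 1 did not pass the test, and their median log2 fold change was -1.78. Kcnk10, a channel opened by stretch and lipids, was at 12.2, 19.0, 20.3 and 12.3 CPM in Ctrl and at 0.182, 0.260, 0.160 and 2.01 CPM in YAP5SA. YAP5SA replicate 4 stood apart from its group, and the log2 fold change of -4.55 (SE 0.49, adjusted p = 2.16e-06) was -6.28 without it (adjusted p = 6.87e-09). Kcnk3, an acid-sensitive channel, fell by 2.95 (SE 0.27) and Kcnk6 fell by 2.74 (SE 0.18) on the log2 scale. Kcnk1 was at 138, 159, 154 and 170 CPM in Ctrl and 76.3, 84.5, 92.9 and 99.1 CPM in YAP5SA (-0.82, SE 0.09, adjusted p = 3.12e-06). It was nevertheless the main tandem-pore transcript in both groups, at 82.4% to 87.9% of the summed level per kb of exon in Ctrl and 77.4% to 83.6% in YAP5SA.

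Kcnk5, an alkaline-activated channel of transporting epithelia, was at 11.6, 15.2, 15.01 and 8.43 CPM in Ctrl and rose to 28.0, 27.9, 21.9 and 31.4 CPM in YAP5SA (1.12, SE 0.17, adjusted p = 5.31e-05). Kcnk7 was at 0.03 (adjusted p = 0.951). The Kcnk5 share of the summed tandem-pore level per kb was 2.87% to 5.30% in Ctrl and 12.9% to 18.6% in YAP5SA. Kcnk13, below the filter, had 0 counts in Ctrl and 43 in YAP5SA, at least 15.1-fold higher if the Ctrl sum is set to 3 counts.

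Among auxiliary subunits, 2 of 4 tested were higher and 2 not called. Kcnab1, a cytosolic beta subunit that modifies voltage-gated channels of the Kcna type, was at 0.451, 1.07, 0.459 and 0.670 CPM in Ctrl and at 138, 172, 117 and 107 CPM in YAP5SA. This was the steepest rise of all 70 genes, at 7.68 on the log2 scale (SE 0.22, adjusted p = 4.49e-12), a 206-fold difference. Its relative Kcnab3 was at 0.451, 0.533, 0.292 and 0.503 CPM in Ctrl and 1.95, 3.12, 1.60 and 2.01 CPM in YAP5SA (2.29, SE 0.34). The last of the 3 beta subunit genes, Kcnab2, stayed below the filter with 6 counts in Ctrl and 62 in YAP5SA (10.9-fold higher per total count, counting interval 4.73 to 30.8). The only tested pore subunit of the Kcna type, Kcna7, was at 0.651 ± 0.131 and 0.517 ± 0.132 CPM (SD, n = 4 each) and was not called (-0.32, adjusted p = 0.452).

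Kcne3, a beta subunit that holds Kcnq1 open, was at 0.70 and not called (adjusted p = 0.129), but at 1.19 without Ctrl replicate 1 (adjusted p = 0.00813). Kcnip4, a calcium-binding partner of Kcnd channels, was at -0.48 (adjusted p = 0.257). The parietal subunit gene Kcne2 had 11 counts in Ctrl and 26 in YAP5SA and was not tested.

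Most voltage-gated potassium channel pore genes had few or no counts: of 40, 16 had 0 counts and 7 were tested, with 2 lower, 1 higher and 4 not called. Kcnq1, the channel that recycles potassium beside the gastric acid pump, was at 38.1, 39.8, 37.5 and 35.4 CPM in Ctrl and 35.2, 33.3, 32.6 and 25.5 CPM in YAP5SA. The groups were separated by less than 1 CPM, and its value of -0.25 (SE 0.10) was just past the threshold (adjusted p = 0.0446). Kcnq1 was not called once Ctrl replicate 2 (-0.25, adjusted p = 0.0767), Ctrl replicate 3 (-0.27, 0.0597), YAP5SA replicate 2 (-0.28, 0.0556), YAP5SA replicate 3 (-0.27, 0.0634) or YAP5SA replicate 4 (-0.17, 0.102) was left out. Nor was it with library size scaling (-0.08, adjusted p = 0.559) or no filter on low counts (-0.25, adjusted p = 0.0500). Kcnh7, a channel of the ether-a-go-go-related type, rose from 1.74 ± 0.520 to 7.41 ± 0.876 CPM (SD, n = 4; 2.09, SE 0.22).

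Kcnf1, a silent modifier subunit, was at -1.19 (adjusted p = 0.0237). Leaving out Ctrl replicate 2 (-1.02, adjusted p = 0.0654), Ctrl replicate 3 (-0.93, 0.0917), YAP5SA replicate 3 (-1.13, 0.0576) or YAP5SA replicate 4 (-1.08, 0.0582) ended that call. Kcnh2, a channel of the same type as Kcnh7, was not called. Kcnq5 had 13 counts in Ctrl and 37 in YAP5SA and was not tested.

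Of the parietal markers, Atp4a was at 0.55 (adjusted p = 0.113), Sstr2 fell by 3.31 on the log2 scale, and Atp4b and Cblif had 13 and 46 counts in Ctrl and 1 and 5 in YAP5SA. The 4 parietal markers summed to 13.7 to 18.7 CPM in Ctrl and 4.94 to 6.61 CPM in YAP5SA, and most of that sum was Sstr2 (12.2 CPM in Ctrl, 1.22 CPM in YAP5SA). The part of these 4 markers in the falls of Kcnj15 and Clic6 was not tested. Per kb of exon, Kcnq1 was at 9.21 ± 0.449 in Ctrl and 7.73 ± 1.04 in YAP5SA, and Kcnj15 at 29.99 ± 8.55 and 1.89 ± 0.392 (CPM per kb, SD, n = 4).

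The group of calcium- and sodium-activated potassium channel genes, in which Kcnu1 was placed by family, gave 1 gene lower and 1 higher of 4 tested. Kcnn4, the intermediate-conductance channel of secretory epithelia, was at 7.95, 9.06, 11.0 and 7.76 CPM in Ctrl and 1.63, 1.77, 1.76 and 1.92 CPM in YAP5SA (-2.34, SE 0.18, adjusted p = 7.73e-08). Kcnn1 was at 1.43 (adjusted p = 0.0238), from 20 counts in all of Ctrl and 60 in all of YAP5SA. It was not called once Ctrl replicate 3 (0.98, adjusted p = 0.0739), YAP5SA replicate 1 (1.33, 0.0649) or YAP5SA replicate 2 (1.29, 0.0690) was left out, or by DESeq2 (1.41, adjusted p = 0.0554). Kcnn3 (-0.44, adjusted p = 0.462) and Kcnu1 (0.35, adjusted p = 0.161) were not called, the latter passing at 0.52 with library size scaling (adjusted p = 0.0428). Kcnma1, the large-conductance channel, had 2 and 8 counts and was not tested.

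**Figure D3:**
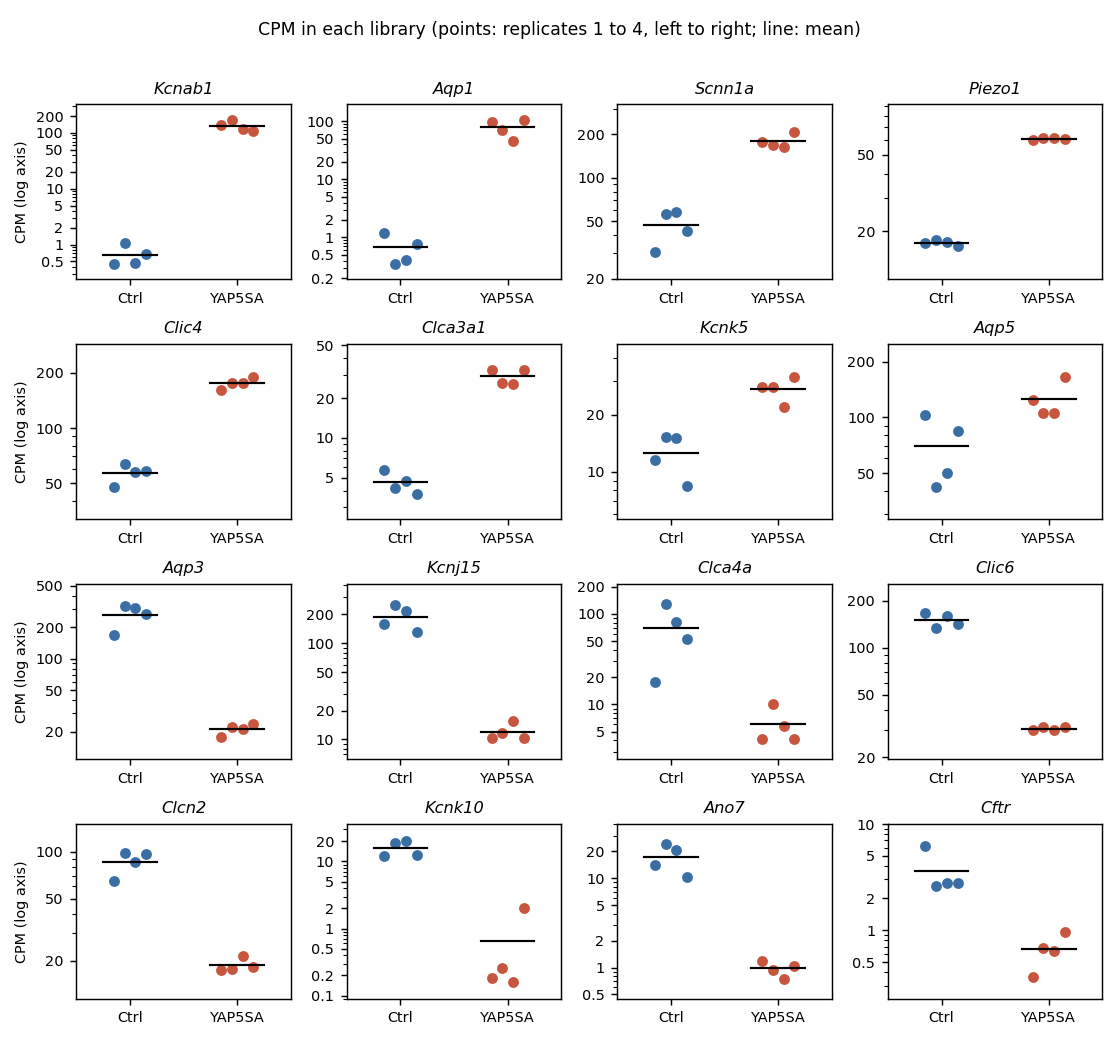
CPM with TMM scaling (vertical axis, log scale, a separate range in each panel) in the 4 Ctrl and 4 YAP5SA libraries for 16 of the genes; points are libraries and lines are means. Kcnab1 and Aqp1 are 206-fold and 118-fold higher in YAP5SA, and for Kcnk10 YAP5SA replicate 4 (2.01 CPM) lies above the other 3.

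Of the 3 subunits of the epithelial sodium channel, only the pore-forming alpha subunit was called. Scnn1a was at 30.5, 55.6, 57.6 and 42.8 CPM in Ctrl and at 175, 169, 163 and 208 CPM in YAP5SA, with no overlap (1.94, SE 0.16, adjusted p = 1.4e-07). Its partner subunits are both needed for full channel activity. Scnn1g was at 3.09 ± 1.04 and 3.06 ± 0.814 CPM (SD, n = 4 each; 0.00 on the log2 scale, SE 0.28, adjusted p = 0.993), and at 0.17 with library size scaling. Scnn1b was at 1.13 ± 0.518 and 0.946 ± 0.319 CPM (-0.23, SE 0.38, adjusted p = 0.610). Per kb of exon, Scnn1a stood at 11.3 ± 3.05 in Ctrl and 43.3 ± 4.85 in YAP5SA, against 1.03 ± 0.348 and 1.02 ± 0.272 for Scnn1g and 0.430 ± 0.197 and 0.359 ± 0.121 for Scnn1b (CPM per kb, SD, n = 4).

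Voltage-gated sodium and calcium channels, known from excitable cells, were mostly not measurable. Of 14 sodium channel genes 2 were tested, with 1 lower and 1 not called. Scn3b, an auxiliary beta subunit, was at 4.85, 2.78, 2.79 and 1.84 CPM in Ctrl and at 0.590, 0.624, 0.639 and 1.78 CPM in YAP5SA, where replicate 4 nearly reached the lowest Ctrl library (-1.73, SE 0.40, adjusted p = 0.0017).

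Of 26 calcium channel genes 6 were tested, with 2 lower, 1 higher and 3 not called. Cacna1b, the pore of N-type channels, was at 3.72, 4.92, 3.09 and 3.13 CPM in Ctrl and 0.318, 0.572, 0.480 and 0.182 CPM in YAP5SA (-3.26, SE 0.34, adjusted p = 1.38e-06). The beta subunit gene Cacnb4 went from 0, 1, 6 and 0 counts in Ctrl to 17, 26, 12 and 22 counts in YAP5SA (3.31, SE 0.65, adjusted p = 0.000521). Its value was 5.20 without Ctrl replicate 3 (adjusted p = 0.000105), which held most of the Ctrl counts. In GENCODE M21, 16.0% of the exon bases of Cacnb4 overlap A430018G15Rik on the other strand, which also rose (1.36, adjusted p = 0.00174). Without a stated strand setting their reads cannot be told apart.

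Cacnb2 was at -0.85 (adjusted p = 0.0370). Leaving out Ctrl replicate 1 (-0.86, adjusted p = 0.0555), Ctrl replicate 2 (-0.73, 0.0964), Ctrl replicate 3 (-0.78, 0.0909), YAP5SA replicate 1 (-0.71, 0.106) or YAP5SA replicate 2 (-0.83, 0.0744) ended the call. So did library size scaling (-0.68, adjusted p = 0.0877). Cacnb3, the most abundant calcium channel subunit per kb of exon at 4.75 ± 0.450 in Ctrl and 4.35 ± 0.485 CPM per kb in YAP5SA, was at -0.13 (adjusted p = 0.349) and at 0.05 with library size scaling. Cacna1a (-0.19) and Cacna1g (0.66) were not called, the latter passing at 0.83 with library size scaling (adjusted p = 0.0359). Cacna1d had 10 counts in Ctrl and 14 in YAP5SA. Of 5 neuronal markers, Elavl4 was among 2 at 0 in all libraries, and the 5 summed to 4.86 to 5.59 CPM in Ctrl and 1.5 to 3.28 CPM in YAP5SA. Their sum was lower in YAP5SA, as Cacna1b and Scn3b were, and their part in those falls was not tested.

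Among TRP channels, cation channels that respond to chemical and physical stimuli, 21 genes gave 4 tested, 2 higher and 2 lower. Trpm4, opened by intracellular calcium, was at 89.7, 111, 111 and 103 CPM in Ctrl and 47.2, 39.0, 47.9 and 42.3 CPM in YAP5SA (-1.23, SE 0.09, adjusted p = 5.14e-08). Trpm7, a magnesium-permeable channel joined to a kinase, was at -0.29 (SE 0.07, adjusted p = 0.00235), and at -0.12 and not called with library size scaling (adjusted p = 0.199). Trpc1 rose by 0.999 (SE 0.15), from 5.30 ± 0.864 to 10.6 ± 0.795 CPM (SD, n = 4).

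Trpm5, the cation channel of taste and tuft cells, was at 1.02, 1.01, 1.04 and 1.34 CPM in Ctrl and 2.09, 2.08, 3.09 and 2.51 CPM in YAP5SA (1.14, SE 0.26, adjusted p = 0.00153). Beside it, the tuft markers Dclk1 and Avil were at 4.98 and -4.17, Pou2f3 had 5 and 2 counts, Il25 0 and 1 and Gnat3 6 and 24, and the 5 summed to 128 to 200 CPM in Ctrl and 23.2 to 27.8 CPM in YAP5SA. Most of that sum was Avil in Ctrl (165 CPM, with Dclk1 at 0.518 CPM) and Dclk1 in YAP5SA (16.1 CPM, with Avil at 9.17 CPM). The part of these markers in the Trpm5 value was not tested. Trpv6, an epithelial calcium channel, had 12 counts in Ctrl and 1 in YAP5SA (11.4-fold lower, counting interval 1.68 to 486), and Trpv4, which senses swelling, had 8 and 10.

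Piezo1, the pore of a channel opened by membrane stretch, was at 17.4, 18.1, 17.6 and 16.9 CPM in Ctrl and at 59.5, 61.3, 61.0 and 60.5 CPM in YAP5SA. Libraries within a group differed little from one another, and the rise of 1.79 on the log2 scale (SE 0.08, adjusted p = 1.67e-10) was 3.46-fold. In GENCODE M21, 24.6% of its exon bases overlap Ctu2 on the other strand, and Ctu2 was at 7.78 ± 2.39 and 7.44 ± 1.82 CPM (SD, n = 4 each; -0.06, adjusted p = 0.837). P2rx4, an ATP-gated cation channel found in lysosomes and at the cell surface, was the only tested gene of 7 in its family. It was at 47.0, 47.9, 45.8 and 45.1 CPM in Ctrl and 16.5, 19.4, 16.3 and 14.9 CPM in YAP5SA (-1.47, SE 0.10, adjusted p = 1.1e-08). Of 5 immune markers, Csf1r (6.59) and Cd68 (1.63) rose, Ptprc had 15 and 3 counts, Cd3e 4 and 0 and Adgre1 none. The 5 summed to 8.57 to 17.9 CPM in Ctrl and 66.4 to 73.2 CPM in YAP5SA. Most of that sum was Cd68 (12.3 and 38.2 CPM) and, in YAP5SA, Csf1r (0.319 and 32.0 CPM). The part of these markers in the P2rx4 value was not tested. Piezo2 had 2 and 4 counts and was not tested. P2rx2, below the filter, had 6 and 28 counts.

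Across families, transcripts were ranked by their level per kb of exon, an order that depends on the exon lengths used. In Ctrl the highest were Clic1 at 276 ± 27.2, Clca1 at 256 ± 153, Aqp3 at 144 ± 37.4, Kcnk1 at 69.4 ± 5.86 and Clic6 at 38.6 ± 4.06 CPM per kb (SD, n = 4), and the first 2 of these do not differ beyond their spread. In YAP5SA they were Clca1 at 191 ± 18.5, Clic1 at 160 ± 11.4, Aqp5 at 48.2 ± 10.9, Scnn1a at 43.3 ± 4.85 and Kcnk1 at 39.5 ± 4.44, the last 3 within each other's spread. A level of at least 10 CPM per kb was reached by 15 genes in Ctrl and 11 in YAP5SA.

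**Figure D4:**
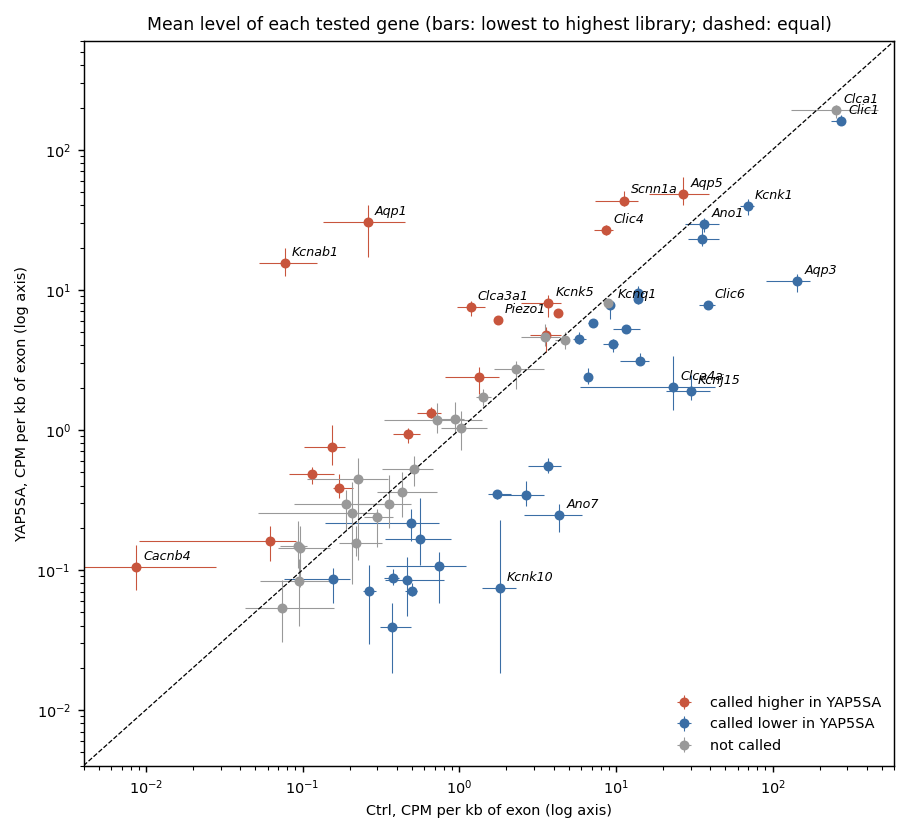
Mean level of the 70 tested genes in Ctrl (horizontal axis) and YAP5SA (vertical axis), in CPM per kb of exon on log scales; bars run from the lowest to the highest library, out to the axis where a library had 0 counts, and the dashed line marks equal levels. Aqp1 and Kcnab1 lie far above the line, and Aqp3, Clic6, Kcnj15, Clca4a, Ano7 and Kcnk10 far below it.

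Other channel genes, not taken by the symbol pattern, were read from the same test. Of 61 found in the table, 31 were tested, with 17 lower, 6 higher and 8 not called. All genes tested gave 31.3% lower and 33.1% higher. The median log2 fold change of the 31 was -0.60, against 0.02 over all genes. Among genes of store-operated calcium channels, the pore genes Orai1, Orai2 and Orai3 fell by 0.35, fell by 1.30 and fell by 0.91 and the sensor gene Stim2 fell by 1.10, while the sensor gene Stim1 rose by 0.59. Among the receptors that release calcium from the endoplasmic reticulum, Itpr3 fell from 286 to 105 CPM (-1.44, SE 0.10) and Itpr1 rose from 13.1 to 35.3 CPM (1.43, SE 0.19). Of the 5 subunit genes of the volume-regulated anion channel, Lrrc8a, Lrrc8b and Lrrc8e were called lower at -1.05, -1.12 and -0.60, and Lrrc8c (0.31, adjusted p = 0.0760) and Lrrc8d (-0.07, adjusted p = 0.507) were not called. The stretch-activated channel gene Tmem63a was at -1.20 and the large-pore channel gene Panx1 at -2.50, and the proton-activated chloride channel gene Pacc1 rose by 1.03.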

How the data were processed

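RNA from 8 organoid cultures, 4 Ctrl and 4 YAP5SA by their titles, was analysed from one table. The values deposited are counts: how many reads fell on each gene, as integers and with no scaling. The submitters' processing notes name cutadapt, HISAT2 2.0.1, HTSeq 0.6.1 and the build mm9. Neither the labels nor the table give an annotation release, strand handling or read filters. No coordinates of the file's annotation are printed. Replicates of a group differed by more than sampling noise (chi-square per degree of freedom 4.69 to 34.9).

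All genes were fitted in R 4.3.3 with edgeR 4.0.16: filterByExpr (minimum count 10, minimum total 15) left 13812, libraries were scaled by TMM (factors 0.92 to 1.08), and the two-sided quasi-likelihood test of YAP5SA against Ctrl had no other term, with Benjamini-Hochberg adjustment over all genes and a threshold of 0.05. Log2 fold changes have standard errors equal to their size divided by the square root of F. CPM values use TMM scaling, and levels per kb divide them by the union of GENCODE M21 exons of the same symbol, found for all 209 genes. That annotation need not be the authors'. For genes under the filter, ratios of counts per total count have exact 95% intervals, and a count of 0 was set against a floor of 3 counts. Reads carry no molecular identifiers, so intervals cover counting error only. On simulated counts (13595 genes tested), 82 genes were changed 1.5-fold, 54 were changed 2-fold and 59 were changed 4-fold. Of the 82 and the 54, 56.1% and 83.3% were recovered, and 7.98% of calls were false. In the measured counts 8907 of 13812 genes were called. Recovery with so many changed genes was not tested, nor was the share of false calls.

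The genes and lists were chosen with earlier results of these data known. By the naming rule, any gene kept by the filter may be named, values in every library are given for the largest changes, the most counted genes, those with the smallest p in each family and preset gastric and epithelial channels, and genes under the filter are named from 30 counts or if preset. Counts and medians cover all tested genes, of which 3 are not reported here by name. The other aquaporin and inward rectifier genes under the filter were named after their values were seen, all of those with a count. One alternative was DESeq2 1.42.0 on all rows, with its own scaling and filter. The others changed the scaling (RLE, or library size alone), the filter (none, or 1 CPM in at least 4 libraries), a block for replicate number, or left out 1 library. The filter was run anew each time a library was left out.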

Additional observations from a re-analysis of the deposited data

Results flagged for a closer look

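For each tested gene and group, the gap between the outermost library and its nearest neighbour was set against the range of the 4 libraries, with Dixon's 95% critical value for 4 samples as the limit. Of 140 groups, 11 passed, and chance flags about 1 in 20. In Ctrl, replicate 1 stood apart for Cftr (gap 0.948 of the range; 6.21 CPM against 2.61 to 2.79 in the others), for Clic1 (0.889; 423 against 514 to 525 CPM) and for Ano6 (0.884; 55.8 against 50.6 to 51.2 CPM). Ctrl replicate 2 was high for Kcnn3 (0.950; 1.66 against 0.447 to 0.508 CPM), and Ctrl replicate 4 for Trpm5 (0.894; 1.34 against 1.01 to 1.04 CPM) and Kcnip4 (0.837; 1.17 against 0.621 to 0.711 CPM).

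In YAP5SA, all 5 of these libraries were replicate 4. It was high for Kcnk10 (0.946; 2.01 against 0.160 to 0.260 CPM), for Scn3b (0.959; 1.78 against 0.590 to 0.639 CPM) and for Clic1 (0.877; 318 against 276 to 281 CPM). It was low for Ano3 (0.841; 14.0 against 21.2 to 22.5 CPM) and for Kcna7 (0.933; 0.319 against 0.572 to 0.590 CPM).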

How the results depend on the processing

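The counts of 18 genes called higher and 31 lower became 28 and 34 with no filter on low counts, where 159 of the genes entered the test. At nearly the same fold changes, that fit gave far smaller edgeR adjusted p for Clca1 (0.207 to 2.16e-06) and Kcnj15 (7.98e-10 to 6.07e-312). For Clcn3 it was larger (0.0543 to 0.157). Why was not tested, so the adjusted p of that fit was not read as a measure of the spread among cultures. Leaving out 1 library gave 16 to 22 higher and 27 to 32 lower, with 72 to 74 of the genes entering the test. The replicate block gave 20 and 30, with Cacnb2 at -0.81 (edgeR adjusted p = 0.0525) and Aqp4 at 0.93 (0.0110) among the 3 calls it changed. Deviations of same-numbered libraries of the 2 groups had correlations of 0.0653, 0.0463, 0.0901 and 0.281, against -0.192 to 0.131 for libraries of unlike number. Replicates 1 and 4, but not all, correlated best with their own number. The labels do not say whether the numbers pair cultures, and these values cannot settle it. The remaining 4 alternatives gave 16 to 23 higher and 26 to 35 lower. Among them, DESeq2 was given all 209 genes and the 1 CPM filter kept 61. Of the calls over all genes, 64.2% were higher with library size scaling and 50.2% to 51.4% in every other setting. Of the 49 called genes, 41 were called the same way in all 14 alternatives that gave them a value, 16 of them higher and 25 lower. The 8 that lost the call in at least 1 were Ano1, Ano9, Cacnb2, Clcn7, Kcnf1, Kcnn1, Kcnq1 and Trpm7, and none reversed. Genes not called changed sign in places. Library size scaling put Cacnb3 at 0.0493, Clcn3 at 0.0191 and Scnn1g at 0.17. Scnn1g was at 0.0033 with the 1 CPM filter and 0.0060 with the block. Leaving out 1 library gave ranges of -0.43 to 0.0942 for Cacna1a, -0.67 to 0.0311 for Clca1, -0.16 to 0.16 for Kcnk7, -0.74 to 0.21 for Kcnn3, -0.44 to 0.10 for Scnn1b and -0.18 to 0.21 for Scnn1g. The cause of these changes was not tested. Of the 209 genes, 139 had too few counts for the test, 50 of them none in any library, and at this depth no expression and expression below the floor cannot be told apart.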

Other observations

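Within Ctrl, the tested channel genes did not vary in step. Ctrl replicate 1 had the lowest level of 25 of the 70 genes and the highest of 18. It was the lowest Ctrl library for Aqp3 (167 CPM), Clca4a (17.8 CPM), Clca1 (495 CPM), Kcnj2 (1.86 CPM) and Scnn1a (30.5 CPM), and the highest for Aqp5 (103 CPM), Cftr (6.21 CPM), Ano1 (283 CPM) and Kcne3 (2.48 CPM). Ctrl replicate 2 had the highest level of 30 genes, among them Aqp3 (319 CPM), Clca1 (1785 CPM) and Clca4a (128 CPM), and the lowest Ctrl level of Aqp5 (42.3 CPM).

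Genes under the filter were not tested, but some had nearly all their counts in YAP5SA. Kcnt2, a sodium-activated potassium channel gene, had 6 counts in Ctrl and 48 in YAP5SA (8.44-fold, 95% counting interval 3.61 to 24.1). Nalcn, a sodium leak channel gene outside the symbol pattern, had 0 and 55.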
